A study of Mus musculus with 10 samples.

Results

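Antisense and bidirectional promoter noncoding RNAs are long transcripts without a coding frame, annotated either on the strand opposite a gene or as starting away from a coding gene at a shared promoter. Of the 54446 genes in the count table, 3033 carried one of these biotypes in GENCODE M21, 2855 as antisense and 178 as bidirectional. After Gas5, Dancr, Zfas1, genes of the Snhg family and genes on chromosomes X and Y had been left out (48 genes), 2985 were considered, and 269 of them reached a mean of at least 0.5 CPM (counts divided by the library's total and scaled by 1e6) over all 10 libraries: 223 antisense and 46 bidirectional. Members were selected on this mean level, which is therefore given only as a description. The last genes inside the minimum were Gm37696 at 0.516, Gm15879 at 0.516 and Gm45346 at 0.512 CPM, and the nearest outside were 9330160F10Rik at 0.497, Gm16098 at 0.496 and 4731419I09Rik at 0.494 CPM. No count at all was recorded for 1040 of the 2985.

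The libraries came from primary smooth muscle cells of mouse aorta, freed with collagenase and used at passage 2, from wild type mice (WT, 5 libraries) and from mice that carry the Kit alleles W and Wv (WWv, 5 libraries). Kit encodes the cell surface receptor of stem cell factor. W and Wv are loss-of-function alleles, one lacking a surface receptor and the other with a weakened kinase, so cells of these mice keep little Kit signalling. The protocol speaks of 5 mice per genotype without tying a library to a mouse, so p-values measure the spread between these libraries, and the labels name no age, sex or strain background. Kit itself stood at 3.19, 4.92, 4.07, 4.40 and 4.02 CPM in WT 1 to 5 and at 2.09, 0.929, 1.71, 3.01 and 2.25 CPM in WWv 1 to 5, without overlap (edgeR adjusted p = 0.0122).

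Many mammalian promoters fire in both directions, and the RNA made away from the coding gene is usually terminated early and degraded by the nuclear exosome. Some of these transcripts are longer lived, are spliced and polyadenylated, and act on the neighbouring gene or carry microRNAs. Antisense transcripts that cross exons of a coding gene can pair with its mRNA, and a few, such as the imprinted Kcnq1ot1, silence whole domains.

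Each member was paired with the coding gene it overlapped or, failing that, with the nearest one, called its partner here. Exons of member and partner overlapped on opposite strands in 208 pairs, and in 21 only the gene bodies did. In 33 pairs the genes ran apart from starts within 1000 bases of each other without overlap. The remaining pairs were 3 overlapping on the same strand, 3 on opposite strands without overlap and 1 on the same strand without overlap. Counted over all relations, 167 members started within 1000 bases of their partner's start on the other strand, a head to head arrangement. The median member had a mean of 1.20 CPM (range 0.512 to 80.7), 2 exons and 1898 exon bases, of which 15.7% were shared with another gene, and its level per kilobase of exon was 10.8% of its partner's.

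Library totals ran from 42040255 to 53863661 counts. On the first principal component of all genes (52.5% of the variance) WT 2 lay at 20.2, within the WWv range of 11.5 to 33.4, while the other WT libraries lay between −51.1 and −29.1. The main counts of members, of partners and of members against partners are therefore given with and without WT 2, as are some single genes. Counts by class and most single genes are given with WT 2 only. All 10 smooth muscle markers were detected, and their summed level was 10250 to 13700 CPM in WT and 17340 to 20980 CPM in WWv, with 7 of 10 higher. Of 10 fibroblast markers 4 were lower (sums 1212 to 1932 and 1222 to 1521 CPM). Lum, a matrix proteoglycan of fibroblasts, ran from 2.63 to 49.7 CPM in WT, where WT 2 was lowest, and from 1.10 to 3.23 CPM in WWv. WT 2 was the lowest WT library in 7 of the 10, but the highest in Cd34 (69.0 CPM, the rest 6.18 to 13.4). Of 9 tested endothelial markers 1 was lower, and WT 2 stood apart there too, with a summed level of 374.9 CPM where the remaining WT sums were 97.8 to 122.6 and WWv sums 103.3 to 237.6 CPM. Pecam1, an endothelial adhesion gene, was at 90.6 CPM in WT 2 and at 14.9 to 23.3 CPM in the rest of WT. The adipocyte marker Fabp4 was lower at −1.13 (edgeR adjusted p = 0.000676) and the neuronal tubulin gene Tubb3 at −0.87 (edgeR adjusted p = 0.00485). Lymphocyte, mast cell and erythroid markers were at or near 0 (none passed the low-count filter), and 12 of 27 cell cycle genes were higher, with WT 2 the highest WT library in all 27. The part these cell types play in the results below was not tested, and in bulk RNA fewer cells of a type and less RNA per cell cannot be told apart.

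No label names the strand setting of the counting, so it was read from the counts. The 45 genes, coding or not, lying wholly inside exons of an opposite-strand coding gene of at least 50 CPM were compared with that gene. They stood at a median of 0.991% of its level per kilobase (quartiles 0.211 and 1.67%, highest 4.21%). Some coding genes with most exon bases opposite another gene held counts. The kinase gene Ilk was at 294 CPM with 89.7% of its exon bases so placed, and Pdcd2 at 11.1 CPM with 100%. Such genes were looked for only among coding genes with counts, so that they held counts was fixed by the choice. Other covered coding genes held almost none, such as Cldn22 at 0.0377 CPM. In the genes shown, reads of opposite strands were thus kept apart, to within the few percent given. How the counter treated reads that overlap more than 1 gene is not known and was not tested. Of the 12 members that were higher in WWv, 6 both shared exon bases with their partner and stood at or under that highest value of 4.21%, and the same held for 6 of the 57 that were lower. For these 12 genes the member's own reads and stray reads of the partner cannot be told apart.

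More members fell than rose. In edgeR's quasi-likelihood test with Benjamini-Hochberg adjustment over all 15181 genes tested, at a threshold of 0.05, 57 of the 269 members were lower in WWv (21.2%), 12 were higher (4.46%) and 200 did not pass. Among all genes tested 28.2% passed, 15.4% lower and 12.8% higher. The members' median log2 fold change (WWv minus WT) was −0.19, against −0.01 over all genes tested, and 193 of 269 lay below 0. The groups did not overlap for 37 of the 269 members, against 15.9% of all genes tested. All 269 passed the low-count filter. Without WT 2 the count of lower members was 77 and that of higher members 22. Without WWv 2 the lower members numbered 36, and without WT 1, WWv 3 or WWv 4 the higher members numbered 7.

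Bidirectional transcripts were lower in 14 of 46 cases (30.4%) and higher in 0 by edgeR, DESeq2 and limma-voom, with 1 higher at an unadjusted p under 0.05 in edgeR. Their median was −0.25, and 40 of 46 lay below 0. Antisense genes were lower in 43 (19.3%) and higher in 12 (5.38%) of 223, with a median of −0.18. Intergenic long noncoding RNAs at the same minimum level had a like split, with 66 of 249 lower (26.5%), 13 higher (5.22%) and a median of −0.28. Protein coding genes at that level were split evenly, with 14.9% higher and 15.2% lower of 12507. Intergenic noncoding genes thus leaned the same way as the members, and differences between these classes were not tested.

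**Figure D1:**
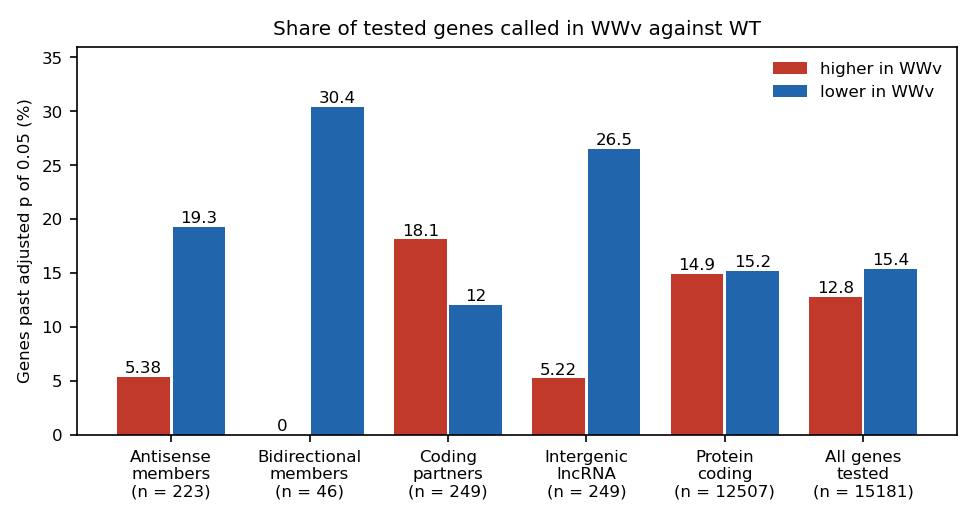
Bars show the percentage of genes past an adjusted p of 0.05 (edgeR) in WWv against WT, higher in red and lower in blue, with the number of genes under each class. Antisense and bidirectional members and intergenic noncoding genes have taller blue than red bars, while the coding partners have 18.1% higher and 12.0% lower.

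Among the coding partners more rose than fell. Of 249 tested, 45 were higher (18.1%) and 30 lower (12.0%), with a median of 0.03, whereas with library totals alone as scaling 24 were higher and 53 lower. Of the 57 lower members, 33 had a partner past no threshold, 10 a lower partner, 7 a higher partner and 7 a partner too low to test. Of the 12 higher members 9 had a higher partner and 3 had one that did not pass. Over 253 pairs the log2 fold changes of member and partner had a Spearman rho of 0.355 and a Pearson r of 0.494, a description across pairs from the same 10 libraries. The member lay below its partner in 183 of the 253. Without WT 2 the partners numbered 75 higher and 53 lower, without WT 1, WT 5 or WWv 2 19 were lower, and without WWv 3 18 were lower.

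**Figure D2:**
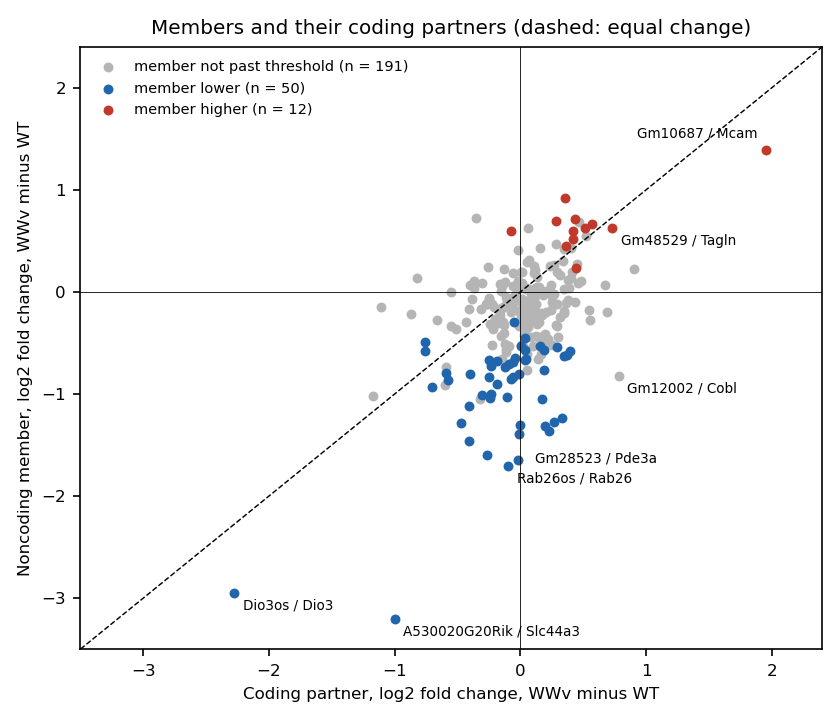
Each point is 1 of 253 pairs, with the log2 fold change (WWv minus WT) of the coding partner on the horizontal and of the noncoding member on the vertical axis; the dashed line marks equal change, and blue and red points are members past the threshold. Lower members lie mostly below the line, around a partner change near 0, and higher members lie in the upper right apart from 1 whose partner stood at −0.07.

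The change of a member against its partner was tested directly as the log2 ratio of the pair in each library (limma, adjusted over all 11764 pairs of a gene and its partner). The ratio was lower in WWv for 49 of 253 members (against 14.2% of all pairs) and higher for 3 (against 12.9% of all pairs). The median difference was −0.20 for members and −0.02 for all pairs. Of the 57 lower members 34 also fell against their partner, 16 did not pass and 7 could not be tested, and 14 members fell against a partner without passing on their own. Of the 12 higher members 10 did not pass against their partner, 1 rose and 1 fell against it. The 3 that rose against the partner were Gm17092 (Hnrnpd), Gm16537 (Gpd1) and Gm15510 (Ccdc106). Lower ratios numbered 74 without WT 2, 31 without WT 4 and 32 without WWv 2, and higher ratios 5 without WT 2 and 1 without WWv 5.

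Members were also counted by their level relative to the partner, without a test between the classes. Among all genes tested 15.4% were lower and 12.8% higher, and among all members 21.2% and 4.46%. Of 51 members under 2% of their partner per kilobase, 3 were lower (5.88%) and 4 higher (7.84%). Of 79 members at 2 to 10%, 17 were lower (21.5%) and 3 higher (3.8%). Of 135 at 10% or more, 35 were lower (25.9%) and 5 higher (3.7%). Members that share no exon base with any other gene were lower in 14 (26.9%) and higher in 2 (3.85%) of 52. Their gene bodies can still overlap another gene, so stray reads of a neighbour are not excluded. Head to head members were lower in 33 (19.8%) and higher in 8 (4.79%) of 167, and the others in 24 (23.5%) and 4 (3.92%) of 102. Lower members had a median of 2323 exon bases, higher members 1114, and those past no threshold 1846.

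**Figure D3:**
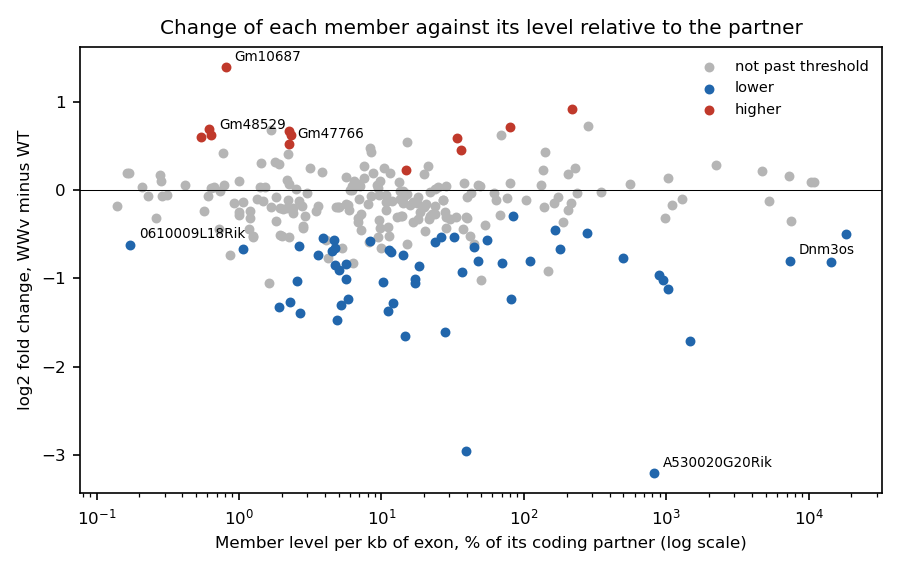
Each point is a member, with its level per kilobase of exon as a percentage of its partner's on the horizontal log axis and its log2 fold change (WWv minus WT) on the vertical axis. Higher members (red) have a median of 2.28% of the partner and lower members (blue) a median of 17.2%.

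Of the 6 most abundant members, Dnm3os fell, Gm48529 rose and the other 4 did not pass. Brip1os (chr11:86201370-86304443, plus strand, 7 exons), which overlaps exons of the Mediator subunit gene Med13, stood at 79.1, 96.2, 76.0, 74.4 and 69.3 CPM in WT 1 to 5 and at 79.3, 86.9, 82.1, 79.8 and 83.6 CPM in WWv 1 to 5. The groups overlapped, and its log2 fold change was 0.06 ± 0.08 (SE, edgeR adjusted p = 0.596), or 0.14 without WT 2 (edgeR adjusted p = 0.0293). Tug1 (chr11:3639785-3649673, minus strand), a conserved and widely expressed long noncoding RNA that starts 86 bases from Morc2a, stood at 71.6, 60.3, 73.7, 80.6 and 72.5 CPM in WT and at 66.6, 67.3, 66.1, 66.1 and 71.5 CPM in WWv. Its log2 fold change was −0.09 ± 0.07 (edgeR adjusted p = 0.352). It passed without WT 2, at −0.14 (edgeR adjusted p = 0.0259). 1110002L01Rik, opposite the kinesin gene Kif3c, was at 0.19 (edgeR adjusted p = 0.124; 0.27 without WT 2, adjusted p = 0.00321), and Ndufb1-ps at −0.03 (edgeR adjusted p = 0.768).

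Dnm3os lies inside the gene body of Dnm3, a dynamin, on the opposite strand (chr1:162217623-162225550, plus strand), and is the precursor of miR-199a and miR-214, microRNAs known from mesenchymal cells. The annotated transcript spans the mature sequences that RefSeq (GRCm38.p6) places at chr1:162217844-162217866 and chr1:162217883-162217904 for miR-199a and at chr1:162223397-162223418 and chr1:162223438-162223459 for miR-214, shown because they are the product of this member, with the seed (bases 2 to 8) in capitals.
miR-199a-5p: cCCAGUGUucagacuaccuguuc
miR-199a-3p: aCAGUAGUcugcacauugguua
miR-214-5p: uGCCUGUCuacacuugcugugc
miR-214-3p: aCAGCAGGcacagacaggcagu
No seed is shared among the 4, and mature microRNAs were not measured by these libraries. Dnm3os stood at 34.9, 24.5, 42.9, 55.5 and 50.9 CPM in WT 1 to 5 and at 27.6, 18.5, 22.3, 21.6 and 30.0 CPM in WWv 1 to 5. WT 2 lay inside the WWv range, and the other WT libraries lay above it. The mean went from 41.8 ± 12.4 to 24.0 ± 4.71 CPM (SD, n = 5 each), a log2 fold change of −0.80 ± 0.21 (edgeR adjusted p = 0.0169). Dnm3 fell by 0.59 on the log2 scale (edgeR adjusted p = 0.00519) from 1.64 CPM, and the ratio of the pair did not pass (−0.19 ± 0.23, limma adjusted p = 0.556).

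Dio3os, named after its values were seen, also carries a microRNA, miR-1247, and lies head to head with Dio3, the imprinted deiodinase gene whose product inactivates thyroid hormone. Its transcript (chr12:110275385-110278172, minus strand) covers both mature arms, at chr12:110278058-110278078 and chr12:110278094-110278115.
miR-1247-3p: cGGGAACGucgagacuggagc
miR-1247-5p: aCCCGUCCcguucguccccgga
Dio3os stood at 2.42, 0.388, 1.68, 3.77 and 4.28 CPM in WT and at 0.0900, 0.186, 0.192, 0.538 and 0.573 CPM in WWv. Only WT 2 fell within the WWv range. The log2 fold change was −2.95 ± 0.63 (edgeR adjusted p = 0.00704), that of Dio3 −2.28 (edgeR adjusted p = 0.0151), and the ratio did not pass (−0.78, limma adjusted p = 0.0531).

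The largest fall was that of A530020G20Rik (chr3:121531619-121536206, plus strand, 4 exons), a spliced antisense gene head to head with Slc44a3, which encodes a choline transporter-like protein. It stood at 35.3, 11.3, 40.2, 66.0 and 57.4 CPM in WT 1 to 5 and at 5.69, 2.72, 4.84, 3.44 and 6.11 CPM in WWv 1 to 5. All WWv libraries lay below all WT libraries, with WT 2 closest to them. The largest falls and rises described here and below were picked among calls with groups that do not overlap. Their separation was thus fixed by the choice and adds no support. The gene was 9.20-fold lower, a log2 fold change of −3.20 ± 0.42 (edgeR adjusted p = 0.0008). The antisense gene stood at 823% of Slc44a3 per kilobase. Slc44a3 went from 5.06 ± 1.05 to 2.53 ± 0.399 CPM (edgeR adjusted p = 0.00195). The antisense gene also fell against it, by a log2 ratio of −2.06 ± 0.36 (limma adjusted p = 0.00268). The fibroblast marker Lum stood at 23.2, 2.63, 24.8, 48.1 and 49.7 CPM in the same WT libraries, with WT 2 lowest in both genes. Lum was the marker of its list with the largest fall. Of the 10 fibroblast markers 4 were lower, while Cd34 (0.62, edgeR adjusted p = 0.482) and Serpinf1 (0.11, edgeR adjusted p = 0.464) leaned upward without passing. WT 2 was the lowest WT library in 7 of the 10 and the highest in Cd34. The summed level of these 10 markers was 1212 CPM in WT 2, 1521 to 1932 CPM in the rest of WT and 1222 to 1521 CPM in WWv. Their part in the fall of A530020G20Rik was not tested.

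Several members fell beside a partner that did not pass. Gm28523 (chr6:141246920-141250009, minus strand) starts 43 bases from Pde3a, the cyclic nucleotide phosphodiesterase of vascular smooth muscle. It stood at 3.90, 3.13, 3.76, 3.81 and 3.53 CPM in WT and at 1.42, 0.999, 1.15, 0.990 and 1.20 CPM in WWv. WT 2 was the lowest WT library here, and all WWv libraries lay well below it. The fall was 3.14-fold, −1.65 ± 0.13 on the log2 scale (edgeR adjusted p = 9.88e-05). Pde3a stood at 131 ± 11.6 CPM in WT and 129 ± 17.5 CPM in WWv, a log2 fold change of −0.02 (edgeR adjusted p = 0.913), and the log2 ratio was −1.60 ± 0.15 (limma adjusted p = 7.95e-05).

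Rab26os, a single exon of 497 bases inside the gene body of the small GTPase gene Rab26, stood at 1.86, 1.75, 1.52, 1.81 and 2.02 CPM in WT and at 0.382, 0.395, 0.577, 0.775 and 0.592 CPM in WWv. The groups lay apart, with WT 2 among the other WT libraries. Its log2 fold change was −1.71 ± 0.20 (edgeR adjusted p = 0.000473), against −0.10 ± 0.25 for Rab26 (edgeR adjusted p = 0.795), and the ratio was −1.61 ± 0.32 (limma adjusted p = 0.00485). Rab26 itself was low, at 0.472 ± 0.125 CPM in WT and 0.443 ± 0.109 CPM in WWv, under the 0.5 CPM minimum set for members. 4732440D04Rik starts 55 bases from Rb1cc1, a gene of the autophagy initiation complex, and went from 3.28 ± 0.567 to 1.33 ± 0.320 CPM (−1.30 ± 0.19, edgeR adjusted p = 0.00116). Rb1cc1 stood at 120 ± 15.7 and 119 ± 6.59 CPM, and the ratio was −1.30 ± 0.17 (limma adjusted p = 0.000605).

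Promoter windows show how close these starts are. Each window below runs from 250 bases before to 50 bases after a start (RefSeq, GRCm38.p6), and capitals mark the bases from a GENCODE start of the noncoding gene to the nearest GENCODE start of the coding gene, which can differ from the RefSeq start. The first pair belongs to members that fell, 4632427E13Rik with Rab30 (the window of the noncoding gene, chr7:92741410-92741709, minus strand, 135 bases between starts) and Gm49747 with Tm9sf1 (chr14:55643322-55643621, minus strand, 44 bases between starts).
4632427E13Rik and Rab30: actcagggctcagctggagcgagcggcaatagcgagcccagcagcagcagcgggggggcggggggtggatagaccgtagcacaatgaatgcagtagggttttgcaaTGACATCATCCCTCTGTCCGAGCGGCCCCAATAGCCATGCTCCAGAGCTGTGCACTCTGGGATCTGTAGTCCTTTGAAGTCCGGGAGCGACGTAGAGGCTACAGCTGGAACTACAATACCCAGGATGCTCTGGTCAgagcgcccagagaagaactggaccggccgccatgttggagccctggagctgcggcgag
Gm49747 and Tm9sf1: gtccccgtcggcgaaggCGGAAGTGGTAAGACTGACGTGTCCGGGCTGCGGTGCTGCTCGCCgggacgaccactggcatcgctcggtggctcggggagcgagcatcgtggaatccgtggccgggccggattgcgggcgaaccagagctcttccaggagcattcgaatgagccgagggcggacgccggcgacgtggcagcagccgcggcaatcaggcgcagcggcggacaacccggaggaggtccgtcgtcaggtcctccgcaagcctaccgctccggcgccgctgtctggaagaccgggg
Both windows hold the letters GGGCGG on one strand or the other, and that of 4632427E13Rik holds CCAAT between the starts. 4632427E13Rik, a single exon of 7303 bases, shares no exon base with another gene. It stood at 5.03, 2.98, 5.62, 4.97 and 5.05 CPM in WT and at 1.78, 1.51, 1.44, 1.18 and 1.87 CPM in WWv, and the groups did not overlap although WT 2 stood well under the other WT libraries. The log2 fold change was −1.60 ± 0.19 (edgeR adjusted p = 0.000464). Rab30, a Golgi GTPase gene, went from 16.1 ± 1.26 to 13.4 ± 0.983 CPM (−0.26, edgeR adjusted p = 0.0200), a call lost without WT 1 (adjusted p = 0.0513) or WWv 2 (adjusted p = 0.0516), and the ratio of the pair was −1.30 ± 0.19 (limma adjusted p = 0.00122). Gm49747 fell by 1.39 ± 0.19 on the log2 scale (edgeR adjusted p = 0.000955) from 1.63 ± 0.285 CPM, while Tm9sf1 stood at 59.3 ± 1.92 and 58.9 ± 2.83 CPM, with a ratio of −1.34 ± 0.19 (limma adjusted p = 0.000897).

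In 7 pairs the member fell while its partner rose. Of all 249 tested partners, 45 were higher (18.1%), and whether such pairs were more frequent than that share was not tested. Gm44777 (partner Pik3c2a, a phosphoinositide kinase gene), Gm16365 (Fyn, a Src family kinase gene), Gm15445 (Arl8a, a lysosomal GTPase gene), Rab10os (Rab10), Gm26559 (Map1b, a microtubule-associated protein gene), 2700046G09Rik (Sgms1, sphingomyelin synthase) and 0610009L18Rik (Actg1, cytoplasmic gamma actin) had log2 fold changes from −1.32 to −0.54, with partners between 0.20 and 0.39. These pairs were picked by opposite calls in the same libraries, so a passing ratio was nearly fixed in advance and adds no support. In all 7 the ratio of the pair passed, from −1.54 to −0.82. That of Gm16365 was −1.51 against Fyn and −0.87 against the coding gene with the nearest start (Gm16365 against partner, limma adjusted p = 0.00302 and 0.0170). Gm15445 is on the same strand as Arl8a and is no antisense partner of it.

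Gm16365 stood at 1.63, 1.10, 1.42, 2.29 and 2.02 CPM in WT and at 0.562, 0.650, 0.770, 0.581 and 1.01 CPM in WWv. No WWv library reached the lowest WT library, WT 2. The log2 fold change was −1.23 ± 0.24 (edgeR adjusted p = 0.00438), while Fyn rose from 56.8 ± 5.34 to 71.6 ± 7.83 CPM (0.33, edgeR adjusted p = 0.0155), a call lost without WWv 4 (adjusted p = 0.0514) and with library totals alone as scaling (adjusted p = 0.0576). Gm44777 went from 1.19 ± 0.244 to 0.476 ± 0.0561 CPM (−1.32 ± 0.18, edgeR adjusted p = 0.00101). The rise of its partner Pik3c2a (0.20, edgeR adjusted p = 0.0276) was 0.11 with library totals alone (adjusted p = 0.176), and was lost without WT 1 (adjusted p = 0.0680), WT 3 (adjusted p = 0.0506), WT 4 (adjusted p = 0.0599), WWv 2 (adjusted p = 0.0795), WWv 3 (adjusted p = 0.0705), WWv 4 (adjusted p = 0.0706) or WWv 5 (adjusted p = 0.0768).

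Rab10os, the most abundant of the 7, stood at 14.8, 9.38, 15.1, 15.2 and 16.5 CPM in WT and at 11.4, 8.62, 8.23, 10.6 and 9.76 CPM in WWv. WT 2 lay within the WWv range. The log2 fold change was −0.54 ± 0.15 (edgeR adjusted p = 0.0197), and Rab10 rose by 0.29 (edgeR adjusted p = 0.00142). Gm26559 stood at 1.88, 1.98, 2.24, 2.25 and 1.90 CPM in WT and at 1.42, 1.16, 1.73, 1.40 and 0.936 CPM in WWv, without overlap (−0.63 ± 0.17, edgeR adjusted p = 0.0176). Map1b, which starts 89 bases away, went from 363 ± 42.8 to 462 ± 34.7 CPM (0.35, edgeR adjusted p = 0.0122). With library totals alone as scaling, the rises of Map1b (adjusted p = 0.0556) and Sgms1 (adjusted p = 0.0520) did not pass in edgeR.

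The pair of 0610009L18Rik and Actg1 is shown for its contrast in level, since the member stood at 0.173% of Actg1 per kilobase. The window is that of Actg1 (chr11:120348446-120348745, minus strand), with 136 bases between the starts.
0610009L18Rik and Actg1: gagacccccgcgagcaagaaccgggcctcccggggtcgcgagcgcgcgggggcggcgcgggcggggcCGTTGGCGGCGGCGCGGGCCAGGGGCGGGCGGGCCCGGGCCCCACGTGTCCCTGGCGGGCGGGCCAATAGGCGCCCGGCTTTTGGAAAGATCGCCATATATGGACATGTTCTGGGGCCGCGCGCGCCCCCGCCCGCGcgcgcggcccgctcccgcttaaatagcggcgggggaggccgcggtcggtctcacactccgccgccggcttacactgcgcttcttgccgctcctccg
It holds GGGCGG and, further in, CCAAT as well as CACGTG, besides a CArG box, the motif of serum response factor. The member shares no exon base with Actg1. It stood at 1.00, 0.755, 0.780, 0.990 and 0.752 CPM in WT and at 0.517, 0.743, 0.433, 0.560 and 0.535 CPM in WWv, so the highest WWv library lay just under the lowest WT library. The log2 fold change was −0.62 ± 0.18 (edgeR adjusted p = 0.0290), and it was lost without WT 1 (adjusted p = 0.0698), WT 4 (adjusted p = 0.0723), WWv 1 (adjusted p = 0.0551), WWv 3 (adjusted p = 0.0702), WWv 4 (adjusted p = 0.0577) or WWv 5 (adjusted p = 0.0569). Actg1 rose by 0.37 (edgeR adjusted p = 0.00318). The fall of 2700046G09Rik (−0.58 ± 0.17, edgeR adjusted p = 0.0237) was likewise lost without WT 3 (adjusted p = 0.0610), WT 5 (adjusted p = 0.0590) or WWv 2 (adjusted p = 0.0582).

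**Figure D4:**
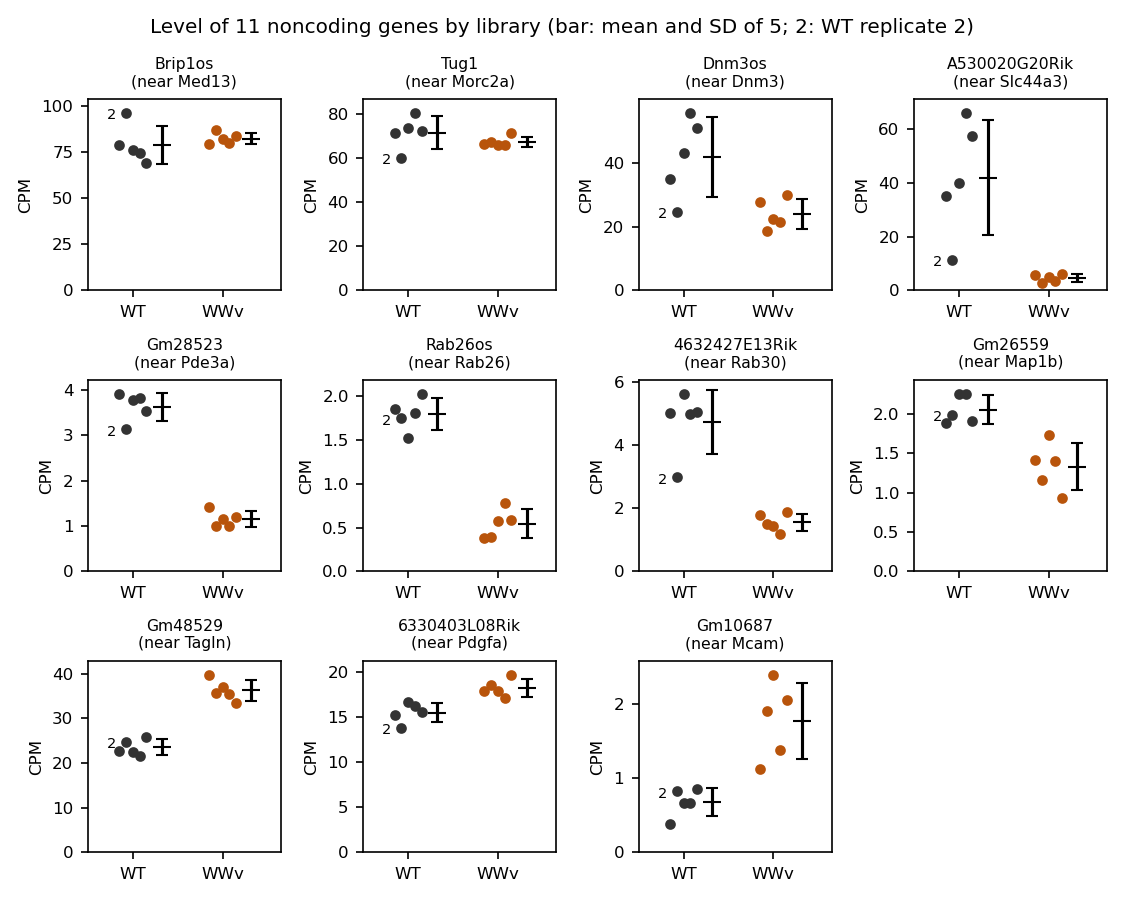
Points are the 10 libraries of 11 noncoding genes in CPM (linear axes from 0), with the mean and SD of each group beside them and WT replicate 2 marked by its number. Brip1os and Tug1 overlap between groups, Gm28523, Rab26os and 4632427E13Rik are lower in every WWv library, and Gm48529, 6330403L08Rik and Gm10687 are higher in every WWv library. The genes named here as lower or higher were picked among calls with groups that do not overlap.

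The largest of the 12 rises was that of Gm10687 (chr9:44122186-44134485, minus strand), which starts 16 bases from Mcam, a cell adhesion molecule of vascular cells. The Mcam window (chr9:44134408-44134707, plus strand) is shown because the first bases of both transcripts overlap in it. In the window of Pdgfa, which encodes the A chain of platelet-derived growth factor (chr5:138994895-138995194, minus strand), the marked starts of Pdgfa and 6330403L08Rik face away from each other, 19 bases apart.
Gm10687 and Mcam: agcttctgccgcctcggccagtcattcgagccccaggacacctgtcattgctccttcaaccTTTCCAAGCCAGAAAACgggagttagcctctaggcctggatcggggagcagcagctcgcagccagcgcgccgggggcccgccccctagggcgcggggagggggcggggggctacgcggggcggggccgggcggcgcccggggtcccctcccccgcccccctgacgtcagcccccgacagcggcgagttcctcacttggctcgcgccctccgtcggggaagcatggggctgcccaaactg
6330403L08Rik and Pdgfa: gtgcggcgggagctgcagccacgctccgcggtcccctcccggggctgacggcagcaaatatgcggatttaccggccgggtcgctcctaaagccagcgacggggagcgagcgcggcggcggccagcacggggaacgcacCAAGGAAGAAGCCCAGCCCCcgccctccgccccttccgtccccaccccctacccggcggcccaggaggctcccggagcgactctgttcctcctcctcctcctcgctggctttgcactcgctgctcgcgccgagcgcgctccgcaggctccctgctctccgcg
Gm10687 stood at 0.376, 0.819, 0.663, 0.667 and 0.846 CPM in WT and at 1.12, 1.90, 2.38, 1.38 and 2.04 CPM in WWv. Every WWv library exceeded every WT library, by 2.62-fold in the fit (1.39 ± 0.26, edgeR adjusted p = 0.00384). Mcam rose more, from 63.9 ± 11.4 to 248 ± 36.4 CPM (1.96, edgeR adjusted p = 6.67e-05), so the ratio fell by 0.63 ± 0.19 (limma adjusted p = 0.0286). That ratio did not pass without WT 3 (adjusted p = 0.0635), WT 4 (adjusted p = 0.0624), WT 5 (adjusted p = 0.0565), WWv 1 (adjusted p = 0.0598), WWv 2 (adjusted p = 0.0624) or WWv 4 (adjusted p = 0.0726). Only 17 exon bases of Gm10687 are shared with Mcam.

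6330403L08Rik, a single exon of 5522 bases, stood at 15.2, 13.8, 16.6, 16.2 and 15.5 CPM in WT and at 17.8, 18.5, 17.8, 17.1 and 19.6 CPM in WWv. The groups did not overlap, but the rise was small, 0.23 ± 0.06 (edgeR adjusted p = 0.0186), and with library totals alone as scaling it was 0.15 (adjusted p = 0.0790). Pdgfa rose by 0.44 (edgeR adjusted p = 0.00128), and the ratio did not pass (−0.21 ± 0.09, limma adjusted p = 0.0907).

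Gm48529, opposite Tagln, the gene of the actin-binding smooth muscle protein transgelin, stood at 22.8, 24.8, 22.6, 21.6 and 25.9 CPM in WT and at 39.7, 35.8, 37.1, 35.4 and 33.5 CPM in WWv. All WWv libraries were higher, 0.62 ± 0.06 on the log2 scale (edgeR adjusted p = 0.000316). Tagln rose by 0.73 (edgeR adjusted p = 0.000461), and the ratio did not pass (−0.11, limma adjusted p = 0.248). Gm48529 shares 48.9% of its exon bases with other genes and stood at 0.633% of Tagln per kilobase, inside the range of wholly covered genes. The same holds for Gm47766 opposite Actn1, the alpha-actinin that cross-links actin (0.52 ± 0.09, edgeR adjusted p = 0.00252, 2.25% of Actn1 per kilobase).

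The other members that rose included Gm15867, head to head with Sertad4 (0.72 ± 0.17, edgeR adjusted p = 0.00999), and Gm44710, head to head with Zfp36, the gene of the mRNA decay factor tristetraprolin. Gm44710 stood at 4.32, 4.07, 5.75, 6.06 and 6.21 CPM in WT and at 8.28, 6.41, 7.75, 7.43 and 6.32 CPM in WWv, a rise of 0.45 ± 0.14 (edgeR adjusted p = 0.0326). The lowest WWv library was barely above the highest WT library, and the call was lost without WT 1 (adjusted p = 0.0753), WWv 1 (adjusted p = 0.0636), WWv 3 (adjusted p = 0.0713) or WWv 4 (adjusted p = 0.0678) and with library totals alone (adjusted p = 0.0605). Named after their values were seen, Fgf2os rose with the growth factor gene Fgf2 (0.67 and 0.57, edgeR adjusted p = 0.0215 and 0.000712), with overlapping groups. Gm17092, opposite the RNA-binding protein gene Hnrnpd, was the 1 higher member that also rose against its partner (ratio 0.61 ± 0.18, limma adjusted p = 0.0274).

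Of the members in the Hox clusters, which order positional identity along the body axis, 4 did not pass. Hoxb5os was at 0.43 (edgeR adjusted p = 0.0549; 0.52 without WT 2, adjusted p = 0.0111; 0.50 without WWv 5, adjusted p = 0.0331), Hoxb3os at −0.32 (edgeR adjusted p = 0.147; −0.39 without WT 2, adjusted p = 0.0451), Gm15050 opposite Hoxa3 at −0.30 (edgeR adjusted p = 0.150) and Hoxaas3 opposite Hoxa7 at −0.04 (edgeR adjusted p = 0.907).

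Gm15222, head to head with the morphogen gene Bmp4, and Runx2os1, head to head with the osteogenic factor gene Runx2, were chosen after their values were seen, and were lower while their partners did not pass. Gm15222 stood at 10.2, 3.32, 8.75, 16.0 and 11.8 CPM in WT and at 3.40, 3.34, 2.79, 3.81 and 4.77 CPM in WWv, where WT 2 lay among the WWv libraries (−1.47 ± 0.33, edgeR adjusted p = 0.00898; ratio −0.96, limma adjusted p = 0.00230). Runx2os1 stood from 1.31 to 1.94 CPM in WT and at 0.945, 0.790, 0.866, 0.797 and 0.936 CPM in WWv, where WT 2 was the highest library (−0.80 ± 0.15, edgeR adjusted p = 0.00376; ratio −0.75, limma adjusted p = 0.00550). The imprinted Kcnq1ot1 ran from 2.41 to 6.69 CPM in WT and from 2.67 to 5.62 CPM in WWv and did not pass (−0.36, edgeR adjusted p = 0.338).

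Gm12002, inside the gene body of the actin nucleator gene Cobl, did not pass on its own (−0.82 ± 0.50, edgeR adjusted p = 0.239; −1.39 without WWv 1, adjusted p = 0.0455), but Cobl rose by 0.78 (edgeR adjusted p = 0.0128) and the ratio was −1.66 ± 0.32 (limma adjusted p = 0.00450). A130014A01Rik went from 1.19 ± 0.220 to 0.513 ± 0.179 CPM (−1.20 ± 0.25, edgeR adjusted p = 0.00597), and its same-strand partner Gm20388 had no count. Gm16008, opposite the receptor gene Tnfrsf18, went from 3.06 ± 0.786 to 1.40 ± 0.407 CPM (−1.12 ± 0.24, edgeR adjusted p = 0.00762), with a ratio that did not pass (−0.80, limma adjusted p = 0.136; −1.04 without WT 2, adjusted p = 0.0323). Tnfrsf18 itself was low, at 0.287 ± 0.139 CPM in WT and 0.215 ± 0.0856 CPM in WWv.

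Over all 57 lower members the median fall was 1.78-fold, 22 were at least 2-fold lower, and in 29 the groups did not overlap. In all 57 the 5 WWv libraries lay below the WT mean. Genes called on these same libraries tend to show such separation, so the counts here describe the called members and add no support. WT 2 was the lowest WT library in 41 of the 57 and lay within the WWv range in 22. The 12 higher members had a median rise of 1.54-fold, 1 was at least 2-fold higher, and in 6 the groups did not overlap.

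Together the members took a small share of all counts, 0.0907, 0.0839, 0.0939, 0.100 and 0.0965% in WT 1 to 5 and 0.0786, 0.0733, 0.0739, 0.0764 and 0.0786% in WWv 1 to 5. The shares of the groups do not overlap. On the TMM scale used for the tests, which corrects for composition, they do: the summed level was 893, 789, 909, 979 and 954 CPM in WT and 800, 765, 773, 777 and 808 CPM in WWv, where WT 2 lay among the WWv libraries. Without A530020G20Rik and Dnm3os the sums ran from 753 to 858 CPM in WT and from 744 to 772 CPM in WWv.

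**Figure D5:**
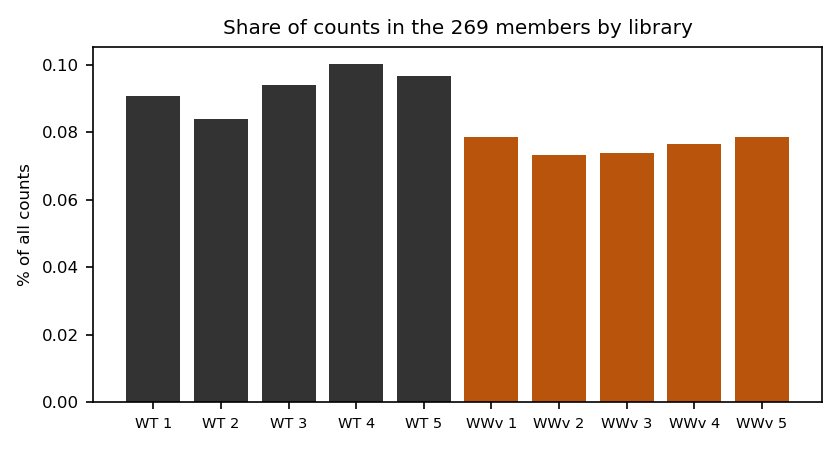
Bars give the percentage of each library's counts that fell on the 269 members, WT in dark grey and WWv in orange, on an axis from 0. WT libraries lie between 0.0839 and 0.100% and WWv libraries between 0.0733 and 0.0786%.

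The machinery that caps, ends or degrades such transcripts held calls in both directions. Of 19 tested genes of the nuclear exosome and its adaptors 3 were higher and 3 lower, against 12.8% and 15.4% of all genes. The higher ones, which the naming rule left out, were the exosome subunit genes Exosc1 at 0.26 (edgeR adjusted p = 0.0220) and Exosc9 at 0.19 (edgeR adjusted p = 0.0441) and the poly(A) polymerase gene Tent4b at 0.28 (edgeR adjusted p = 0.0154). None of the 3 passed with library totals alone (adjusted p from 0.0993 to 0.288). Exosc1 was also lost without WT 4, WWv 2, WWv 3 or WWv 4 (adjusted p from 0.0545 to 0.0643), and Exosc9 without any 1 library other than WT 2 (adjusted p from 0.0577 to 0.125). Pabpn1, the nuclear poly(A)-binding protein, was lower at −0.49 (edgeR adjusted p = 0.00585) and Zfc3h1, which links polyadenylated RNA to the exosome, at −0.39 (edgeR adjusted p = 0.0121). In the list of cap binding and early termination 2 of 15 were higher, among them Ncbp3 at 0.16 (edgeR adjusted p = 0.0155; 0.08 with library totals alone, adjusted p = 0.172), and 1 was lower, the elongation factor gene Supt4a at −0.20 (edgeR adjusted p = 0.0263). The call of Supt4a was lost without WT 1 (adjusted p = 0.0644), WT 4 (adjusted p = 0.0581), WT 5 (adjusted p = 0.0636) or WWv 2 (adjusted p = 0.0623).

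Of 14 genes of Integrator, the complex that cleaves nascent noncoding RNA, 2 were higher and 1 lower, Ints7 at −0.26 (edgeR adjusted p = 0.00816). Ints12 at 0.23 (edgeR adjusted p = 0.0490) was lost without any 1 library other than WT 2 or WWv 5, with adjusted p from 0.0775 to 0.125. It was also lost with 7 other settings, among them RLE scaling (adjusted p = 0.0504), limma-voom (adjusted p = 0.0614) and library totals alone (adjusted p = 0.202). Cleavage and polyadenylation had 1 lower of 16, Cpsf7 at −0.24 (edgeR adjusted p = 0.00670), and 0 of the 10 genes of the U1 small nuclear ribonucleoprotein, which guards transcripts from early cleavage, passed in edgeR (2 higher at an unadjusted p under 0.05, 0 by DESeq2 and 5 higher by limma-voom with quality weights). Of 14 decay genes 2 were lower, Upf3b at −0.27 (edgeR adjusted p = 0.0122) and Smg6 at −0.24 (edgeR adjusted p = 0.0136). Of 12 genes of editing, double-stranded RNA sensing and the microRNA pathway 2 were higher, both of the microRNA pathway. Among all genes tested 12.8% were higher and 15.4% lower. They were Ago2, the slicing Argonaute, at 0.54 (edgeR adjusted p = 0.00203) and Dgcr8 of the microRNA microprocessor at 0.30 (edgeR adjusted p = 0.00155). Dicer1 at 0.11 (edgeR adjusted p = 0.115) and Drosha at −0.02 (edgeR adjusted p = 0.850), also of the microRNA pathway, did not pass. Nor did the editing and sensing genes of the list.

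Promoter windows of RefSeq were found for 140 members and 209 partners. GGGCGG, read on both strands as were all motifs, was in 60.0% of member windows, 66.0% of partner windows and 35.7% of all 32851 windows of the same length. TATAAA was in 9.29, 4.31 and 13.6%, CCAAT in 35.7, 34.0 and 37.4%, CGGAAG in 25.0, 31.1 and 16.9%, and the CArG box in 2.14, 1.91 and 1.63%. The median ratio of observed to expected CpG was 0.74 in members, 0.78 in partners and 0.38 in all windows. It was 0.69 in the windows of 27 lower members, 0.71 in those of 3 higher members and 0.78 in those of 110 members past no threshold. These are matches of letters in annotated windows.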

How the data were processed

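Counts per gene were deposited by the authors as 1 table of 10 libraries. Per the labels' protocols, libraries were made with an mRNA kit from total RNA. Per the submitters' processing notes, bcl2fastq 2.17, Trim Galore 0.4.3, STAR 2.5.2a and mm10 were used. Which counter and annotation were used, and with which strand setting, is not given in the sources used here. Members, gene lists and tests were chosen with earlier results of these data known.

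Gene identifiers were matched to GENCODE M21 (GRCm38, the mm10 build) without version, 54409 of 54446, and the 37 unmatched (0.0026% of counts) stayed in the table. The deposited counts were fitted with edgeR 4.0.16 (R 4.3.3, TMM scaling, filterByExpr with a minimum count of 10, group as the only term). Levels of single libraries are TMM-scaled CPM, whereas members were chosen on plain CPM. Pair ratios were differences of log2 CPM (prior count 2) tested with limma 3.58.1 over 11764 pairs. Errors are SD over 5 libraries or the SE of the fit. The biological coefficient of variation was 0.161. On simulated data with 15538 genes, the edgeR fit recovered 52.2% of 1.5-fold, 97.0% of 2-fold and 100% of 4-fold changes, with 5 of 171 calls false. The ratio fit over 12124 simulated pairs recovered 67.1%, with 11 of 231 false. The simulation gave every gene that same coefficient of variation, changed few genes and held no library like WT 2. Recovery and false calls at the members' level, a median of 1.20 CPM, were not tested.

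Members named were the 10 largest rises and 10 largest falls among calls with groups that do not overlap (6 rises qualified), the 6 highest means, the 6 largest differences in ratio past the threshold, all in Hox clusters (1, past the threshold, is not reported here), and all called opposite to their partner. Kit, the partners of these members and up to 2 called genes per pathway list were named too. Alternatives were other scalings, filters, tests (DESeq2 1.42.0, limma-voom), a replicate block, other partners and each library left out.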

Additional observations from a re-analysis of the deposited data

Results flagged for a closer look

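In 4 of 64 groups of 5 libraries checked, 1 library stood far from the others (a gap of more than 0.71 of the range), and chance alone flags about 1 in 20 such groups. WT 2 was the one in 3 of them. It had 2.98 CPM of 4632427E13Rik, where the other WT libraries had 4.97 to 5.62. It had 0.798 CPM of A130014A01Rik against 1.25 to 1.31, and 9.38 CPM of Rab10os against 14.8 to 16.5. The remaining library was WWv 5, with 71.5 CPM of Tug1 against 66.1 to 67.3 in the other WWv libraries.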

How the results depend on the processing

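With library totals alone as scaling, the median of all genes moved from −0.01 to −0.09, 983 genes were higher and 3599 lower, and 7 members were higher, with 24 partners higher and 53 lower; all 57 lower members stayed lower. Limma-voom with quality weights gave 19 members higher and 73 partners higher and 60 lower. Without WT 2 and WWv 1 together, 72 partners were higher and 60 lower, and 5 ratios higher. A minimum of 1 CPM on average left 37 lower of 153 members, and a filter of 1 CPM in 5 libraries left 1 higher ratio of 135 pairs; both test fewer genes. Leaving out each library in turn gave 7 to 22 members higher and 36 to 77 lower, 32 to 75 partners higher and 18 to 53 lower, and 1 to 5 ratios higher and 31 to 74 lower.

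Deviations of same-numbered libraries from their group means had correlations of −0.09, −0.01, 0.04, −0.07 and 0.31. Those of libraries with unlike numbers ran from −0.54 to 0.47. Whether same-numbered libraries share a batch cannot be told from these values. With the replicate block 7 members were higher and 46 lower, among them 7 of the 12 and 46 of the 57; 6330403L08Rik (edgeR adjusted p = 0.0503), 0610009L18Rik (edgeR adjusted p = 0.0674), Supt4a (edgeR adjusted p = 0.0535), Exosc9 (edgeR adjusted p = 0.0716) and Ints12 (edgeR adjusted p = 0.0560) no longer passed, and Rb1cc1 was at 0.00455.

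Signs turned only for values that had not passed. Brip1os was at −0.028 and Hoxa3 at −0.032 with library totals alone, Brip1os against Brip1, the coding gene with the nearest start, at −0.51 (limma adjusted p = 0.00190), Hoxb5os against Hoxb5 at −0.042 and Tm9sf1 at 0.000496 without WT 2 and WWv 1, and Rb1cc1 at 0.000715 without a filter and 0.00501 with limma-voom. Over single libraries left out, the ratio of Tug1 ran from −0.10 to 0.0099 and that of Hoxb5os from −0.072 to 0.079, and the log2 fold change of Ndufb1-ps from −0.057 to 0.0052, Hoxaas3 from −0.16 to 0.061, Pde3a from −0.081 to 0.028, Tm9sf1 from −0.037 to 0.017, Rb1cc1 from −0.078 to 0.043, Med13 from −0.11 to 0.034 and Hoxa7 from −0.11 to 0.46. The cause of these changes was not tested. With no filter, 0610009L18Rik, 2700046G09Rik, Supt4a, Ncbp3, Ints12, Pik3c2a and Exosc9 did not pass (edgeR adjusted p from 0.0522 to 0.0924). The median mean level of the members was 1.20 CPM, and whether depth limited their calls was not tested.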
